A study of Mus musculus with 48 samples.

Results

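Cirbp and Rbm3 encode the cold-inducible RNA-binding proteins CIRBP and RBM3. They were followed mouse by mouse in the cerebral cortex of male mice, as the 2 rows with these symbols among the 24444 genes of the deposited expression table. The 48 samples came from 4 ages, embryonic day 14.5 (E14.5) and 1, 6 and 12 months, and each age was represented by 6 WT and 6 Chd8 V986*/+ cortices. Both genotypes were C57BL/6J mice and the controls were WT littermates, with the cortex taken from one hemisphere of each mouse and no treatment in any group. Chd8 encodes a chromatin remodeler linked to autism, and the V986* allele, made by CRISPR/Cas9 and descending from one founder, carries tandem stop codons in all cells of the animal, so the Chd8 V986*/+ mice model heterozygous loss of function through a single mutant line. The expression values were variance-stabilizing transformation (VST) values on a log2 scale, on which 1 unit means about a doubling at the levels of Cirbp and Rbm3.

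CIRBP and RBM3 are small, closely related glycine-rich proteins with a single RNA recognition motif each. Most proteins are made less when a cell is mildly cooled, whereas these are made more, and both genes fall when temperature rises above normal, the opposite of the heat shock proteins. CIRBP and RBM3 bind messenger RNAs and affect their stability, polyadenylation and translation. In the brain, they are known for daily rhythms that follow body temperature, for shaping the amplitude of the circadian clock, and, in the case of RBM3, for preserving synapses after cooling.

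In the mm9 annotation, Cirbp (ENSMUSG00000045193.7) lies on the plus strand at chr10:79628730-79635531, and Rbm3 (ENSMUSG00000031167.8) lies on the minus strand at chrX:7716101-7723006. The annotation lists 7 transcripts of Cirbp, of which 3 are protein-coding and 4 retain an intron. It lists 12 transcripts of Rbm3, of which 7 are protein-coding, 2 retain an intron and 2 are marked for nonsense-mediated decay. Changes of splicing with temperature are known for both genes, and the values here are sums over the transcripts of a gene, so the isoforms were not analysed here. The promoter of Cirbp is shown because cold induction of this gene has been traced in part to a short element, the mild cold response element (TCCCCGCC), which the factor Sp1 can bind. The RefSeq table (GRCm38.p6) held 2 starts for Cirbp. The 250 bases before the first start, chr10:80167589-80167838 on the plus strand, are printed in lower case, with the mild cold response element and the GC boxes (GGGCGG on either strand, the general Sp1 motif) in capitals.
Cirbp promoter: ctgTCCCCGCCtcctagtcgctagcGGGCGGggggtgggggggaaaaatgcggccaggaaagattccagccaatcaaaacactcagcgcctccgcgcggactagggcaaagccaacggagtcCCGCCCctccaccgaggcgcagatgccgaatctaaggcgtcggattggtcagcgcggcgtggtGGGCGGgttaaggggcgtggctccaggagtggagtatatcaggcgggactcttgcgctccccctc

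The window held 1 mild cold response element, near its far end at position 4 counted from the 5′ end. On either strand this motif was present in 4.64% of the 32851 promoter windows of the same length. The window also held 3 GC boxes (32.7% of windows held one) and 2 CCAAT boxes (CCAAT, 33.8%), and none of the 3 motifs overlapped another. It held no match to the core of the heat shock element (GAANNTTC, 6.69% of windows) or of the cAMP response element (TGACG, 17.8% of windows), which says only that these letters are not in this window. Such matches are a description of the reference sequence and were not tested for use in the cortex.

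The samples were checked against their labels before the values were compared. Chd8 was lower in all 6 Chd8 V986*/+ mice than in all 6 WT mice at every age, with log2 fold-changes of −0.54 to −0.67 (limma adjp = 1.07e-07 to 0.026). The Y-linked gene Ddx3y was 10.12 to 11.03 across the samples, while Xist, a transcript of the inactive X chromosome, ran from 2.31 to 8.65. The source of the higher Xist values was not tested. Markers of cortex were high at all ages (6 genes, group means of 10.97 to 12.28). The mean of 26 markers of midbrain, hindbrain and spinal cord was 2.68 to 3.17 in every postnatal mouse, near the floor of the scale at 2.14. At E14.5 it was 3.01 to 6.45 in WT mice (group mean 4.33) and 2.97 to 4.10 in Chd8 V986*/+ mice (group mean 3.39). The ranges of the embryonic genotypes overlapped, and the difference of these group means was not tested. The libraries farthest from their own group were replicate 6 of WT at E14.5 and replicate 6 of WT at 12 months, whose root mean square deviations over all tested genes were 1.34 and 1.36 times their group medians. The means of replicates 1 to 3 and of replicates 4 to 6 were equal for each gene within 3.38e-14, so a difference between these sets had been removed before deposit. Each genotype and age contributed 3 mice to either set. The read counts behind the VST values were not used here, so the count behind a single value is not given and the spread between mice gives its precision.

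Cirbp expression was highest before birth and had its lowest group means at 1 month, with intermediate group means in the adult cortex. Even so, 4 WT mice at 12 months, with values up to 9.38, lay below every WT mouse at 1 month. In WT mice at E14.5 the values ran from 10.72 through a median of 11.02 to 11.34, with a mean of 11.03 ± 0.23 (SD, n = 6). In Chd8 V986*/+ mice at E14.5 they ran from 10.51 through 10.86 to 11.24, with a mean of 10.85 ± 0.25 (SD, n = 6). All embryonic values of both genotypes exceeded all postnatal values, the highest of which was 10.50. At 1 month, WT values ran from 9.57 through 9.69 to 9.78 (mean 9.69 ± 0.083, SD, n = 6). Chd8 V986*/+ values ran from 9.22 through 9.53 to 9.60 (mean 9.48 ± 0.14, SD, n = 6). This was the age with the tightest WT group, in which the whole range was 0.22 log2 units. At 6 months, WT values ran from 9.76 through 10.06 to 10.38 (mean 10.06 ± 0.23, SD, n = 6). Chd8 V986*/+ values ran from 9.68 through 9.82 to 10.03 (mean 9.82 ± 0.13, SD, n = 6). The 6-month groups overlapped, and the lowest mouse of both came from the Chd8 V986*/+ group.

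Rbm3 expression was likewise highest before birth, and its postnatal group means ran from 9.75 to 10.31. At E14.5, WT values ran from 10.97 through 11.26 to 11.34 (mean 11.19 ± 0.17, SD, n = 6), and Chd8 V986*/+ values from 11.03 through 11.15 to 11.40 (mean 11.18 ± 0.15, SD, n = 6). The embryonic genotypes were interleaved, and all lay above the highest postnatal mouse at 10.62. At 1 month, WT values ran from 9.53 through 9.84 to 10.19 (mean 9.86 ± 0.26, SD, n = 6), and Chd8 V986*/+ values from 9.31 through 9.75 to 10.19 (mean 9.75 ± 0.28, SD, n = 6). At 6 months, WT values ran from 9.74 through 10.31 to 10.53 (mean 10.22 ± 0.28, SD, n = 6), and Chd8 V986*/+ values from 9.98 through 10.13 to 10.54 (mean 10.21 ± 0.25, SD, n = 6). The genotypes overlapped almost completely at both of these ages.

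**Figure D1:**
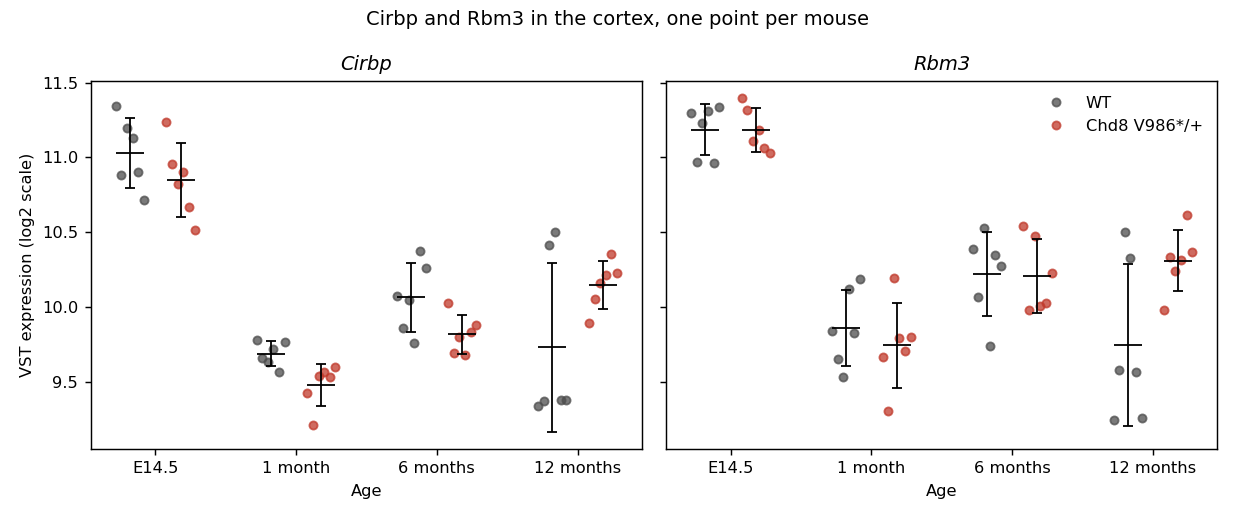
VST expression (log2 scale) of Cirbp and Rbm3 by age, with one point per mouse (gray, WT; red, Chd8 V986*/+) and the mean and SD of 6 mice as a bar. Both genes are highest at E14.5, and the 6 WT mice at 12 months form a high pair and a low set of 4 in both panels.

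The adult cortex of 12 months stood out in the spread between WT mice. WT replicates 1 to 6 had Cirbp values of 9.34, 9.37, 10.42, 10.50, 9.38 and 9.38 (mean 9.73 ± 0.57, SD, n = 6). Replicates 3 and 4 were thus higher than any 6-month mouse, while the other 4 WT mice were lower than any 6-month mouse, with an empty interval of 1.04 log2 units between 9.38 and 10.42. Chd8 V986*/+ replicates 1 to 6 had Cirbp values of 9.89, 10.05, 10.16, 10.21, 10.35 and 10.23 (mean 10.15 ± 0.16, SD, n = 6), all of which fell inside the empty interval of the WT mice. For Rbm3, WT replicates 1 to 6 had values of 9.25, 9.58, 10.50, 10.33, 9.57 and 9.26 (mean 9.75 ± 0.54, SD, n = 6). The same replicates 3 and 4 were high and the same 4 mice low, parted by 0.74 log2 units. Chd8 V986*/+ replicates 1 to 6 had Rbm3 values of 9.98, 10.34, 10.24, 10.32, 10.62 and 10.37 (mean 10.31 ± 0.20, SD, n = 6), which lay above the 4 low WT mice and mixed with the high pair. In the other 14 pairings of gene and group, the largest interval without a mouse was between 0.071 and 0.39 log2 units. The high pair held 1 mouse of replicates 1 to 3 and 1 mouse of replicates 4 to 6, so the sets of replicates did not separate the WT mice. No WT library at 12 months was marked as an outlier for either gene by Dixon's criterion for groups of 6, which looks for single samples and not for a pair.

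Ranked by group mean, Cirbp ran from WT and Chd8 V986*/+ at E14.5 (11.03 and 10.85), through Chd8 V986*/+ at 12 months (10.15), WT at 6 months (10.06), Chd8 V986*/+ at 6 months (9.82), WT at 12 months (9.73) and WT at 1 month (9.69), to Chd8 V986*/+ at 1 month (9.48). Neighbours in this order differed by more than the larger of their SDs at 3 of the 7 steps, and their ranges were apart at 1 step, from the embryonic to the postnatal groups. Rbm3 ran from WT and Chd8 V986*/+ at E14.5 (11.19 and 11.18), through Chd8 V986*/+ at 12 months (10.31), WT and Chd8 V986*/+ at 6 months (10.22 and 10.21), WT at 1 month (9.86) and WT at 12 months (9.75), to Chd8 V986*/+ at 1 month (9.75). Here neighbours differed by more than the larger SD at 2 of the 7 steps, below the embryonic groups and between 6-month Chd8 V986*/+ and 1-month WT mice. In both orders, the 12-month Chd8 V986*/+ group was the highest of the postnatal groups, and 12-month WT mice were among the lower groups because of the 4 low mice.

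The fall from E14.5 to 1 month was the largest change of either gene. In WT mice, Cirbp fell by 1.34 log2 units (SE 0.17, limma adjp = 4.89e-08), to 39.5% of its embryonic level, and Rbm3 fell by 1.32 (SE 0.18, limma adjp = 1.05e-07), to 39.9%. In Chd8 V986*/+ mice, Cirbp fell by 1.37 (SE 0.093, limma adjp = 1.29e-13) and Rbm3 fell by 1.44 (SE 0.12, limma adjp = 7.37e-12). All 6 mice at 1 month lay below all 6 at E14.5 in each of these comparisons (exact two-sided permutation tests, p = 0.0022, the smallest that 6 against 6 mice allow). Most of the genome changed over this interval, with 85.5% of WT and 86.5% of Chd8 V986*/+ tests called, which here means an adjusted p value (adjp) below 0.1 over all genes tested. In bulk cortex, fewer cells that express a gene and less of its RNA per cell cannot be told apart, and the cell types changed strongly over the same interval. The mean of 5 oligodendrocyte markers rose from 6.31 to 14.04 and that of 5 astrocyte markers from 8.39 to 12.64 in WT mice, and the part of this shift in the fall of Cirbp and Rbm3 was not tested.

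From 1 to 6 months both genes recovered part of the fall in Chd8 V986*/+ mice. Cirbp rose by 0.34 (SE 0.093, limma adjp = 0.014), with all 6 mice at 6 months above all 6 at 1 month, and Rbm3 rose by 0.46 (SE 0.12, limma adjp = 0.0080), with 3 of 6 mice above all 1-month mice. Of all genes tested in Chd8 V986*/+ mice, 21.8% were called for this step. In WT mice, the differences were of similar size, 0.38 for Cirbp (95% interval 0.027 to 0.73, limma adjp = 0.17) and 0.36 for Rbm3 (0.0023 to 0.72, limma adjp = 0.21), and neither was called, beside 14.8% of the genes tested. The WT fit shares one estimate of the spread over 4 ages, including the wide 12-month group. Fitted with the 1- and 6-month WT mice alone, the same differences passed, with a limma adjp of 0.0053 for Cirbp and 0.052 for Rbm3.

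From 6 to 12 months Cirbp passed the threshold in Chd8 V986*/+ mice and not in WT mice. Whether the genotypes differed in this change is tested further on, where the contrast did not pass (limma adjp = 0.30). In Chd8 V986*/+ mice, Cirbp rose by 0.33 (SE 0.093, limma adjp = 0.085), to 126% of its 6-month level, with 5 of 6 mice above all 6-month mice. This call, in a comparison where 1.88% of genes passed, was close to the threshold. It was lost with an adjp of 0.10 to 0.35 under 7 of the 11 other settings tried. It was also lost without Chd8 V986*/+ replicates 2, 3, 4, 5 or 6 at 12 months, replicates 2, 3, 4 or 6 at 6 months, or replicate 4 at E14.5, where Cirbp differed by 0.29 to 0.35 (limma adjp = 0.10 to 0.19). Rbm3 differed by 0.10 (95% interval −0.14 to 0.34, limma adjp = 0.80) over the same step. In WT mice, Cirbp differed by −0.33 (−0.68 to 0.017, limma adjp = 0.69) and Rbm3 by −0.48 (−0.84 to −0.12, limma adjp = 0.60). Neither was called, beside 0.0115% of the genes tested, and the WT means at 12 months lie between the high pair and the 4 low mice, where there was no WT mouse.

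The comparison of genotypes asks whether loss of one Chd8 copy shifts either gene at a given age, and at no age did Cirbp or Rbm3 pass the threshold. At E14.5, Cirbp differed by −0.18 in Chd8 V986*/+ relative to WT mice (SE 0.12, limma adjp = 0.98) and Rbm3 by −0.0031 (95% interval −0.19 to 0.18, limma adjp = 1.0), beside 0.00593% of the genes called. With the mean of the midbrain, hindbrain and spinal cord markers as a covariate, the E14.5 differences were −0.22 and −0.12, and without WT replicate 6 they were −0.24 and 0.027. Leaving out other single mice moved the Cirbp difference between −0.26, without Chd8 V986*/+ replicate 1, and −0.11, without Chd8 V986*/+ replicate 6, and it was −0.12 without WT replicate 1. At 1 month, 4 of 6 Chd8 V986*/+ mice had less Cirbp than every WT mouse. The difference was −0.21 (SE 0.062, 95% interval −0.34 to −0.077), which missed the threshold over all genes (limma adjp = 0.33; unadjusted p = 0.0038) while the exact two-sided permutation test of this single gene gave p = 0.0065, not adjusted. At 6 months, Cirbp differed by −0.25 (SE 0.091, 95% interval −0.44 to −0.054, limma adjp = 0.53; exact permutation p = 0.052), with 2 of 6 mice below all WT mice. Rbm3 differed by −0.12 at 1 month (95% interval −0.38 to 0.15, limma adjp = 0.84) and by −0.015 at 6 months (−0.28 to 0.25, limma adjp = 0.99). At 1 month single mice moved the Rbm3 value, which was −0.20 without Chd8 V986*/+ replicate 3 and −0.028 without Chd8 V986*/+ replicate 2. It was 0.047 within replicates 1 to 3 and −0.28 within replicates 4 to 6 (limma adjp = 0.20, unadjusted p = 0.0064). In these comparisons 0.139% of genes at 1 month and 0.0927% at 6 months were called. The mean of Cirbp was thus 84.3% to 88.3% of WT from E14.5 to 6 months without passing the threshold at any of these ages, and that of Rbm3 was 92.3% to 99.8%.

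At 12 months the mean of both genes was above that of WT mice in Chd8 V986*/+ mice, and neither difference passed the threshold over all genes. Rbm3 differed by 0.56 (SE 0.19, 95% interval 0.17 to 0.96, limma adjp = 0.29), which corresponds to 148% of the WT level. The exact two-sided permutation test of Rbm3 alone gave p = 0.043, not adjusted, and a single Chd8 V986*/+ mouse, replicate 5, exceeded the whole WT range. Cirbp differed by 0.42 (SE 0.19, 95% interval 0.015 to 0.82, limma adjp = 0.42), or 134% of WT. All 6 Chd8 V986*/+ mice lay within the WT range of Cirbp, and the exact permutation test gave p = 0.104. At this age 0.0463% of genes were called. Within replicates 1 to 3, the differences were 0.33 for Cirbp and 0.41 for Rbm3, and within replicates 4 to 6 they were 0.51 and 0.72. Without WT replicate 3 the Rbm3 difference was 0.71 and was called (limma adjp = 0.064) in a fit where genes called numbered 251 in place of 8, and without WT replicate 4 it was 0.68 (limma adjp = 0.14). In the same fits Cirbp differed by 0.56 and 0.57 (limma adjp = 0.16 for each). Both of these mice belong to the high pair, so leaving out either one raises the difference by construction. Without WT replicate 6, the library farthest from its group, the differences were 0.35 for Cirbp and 0.46 for Rbm3. When all 48 samples entered one fit with a common spread over ages, Rbm3 was called at 12 months (limma adjp = 0.059) and Cirbp was not (limma adjp = 0.13). That fit lends the 12-month WT mice the smaller spread of the other groups, and its genes called at 12 months numbered 520.

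**Figure D2:**
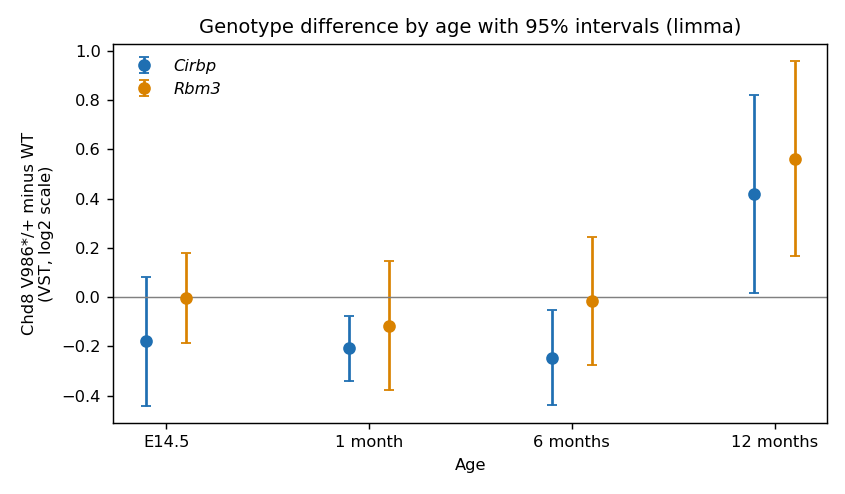
Difference of Chd8 V986*/+ from WT mice in VST expression (log2 scale) of Cirbp (blue) and Rbm3 (orange) at each age, with 95% intervals from limma. Cirbp lies below 0 at the first 3 ages and above it at 12 months, where the intervals of both genes are widest, and no point passed the threshold over all genes.

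Whether the genotype difference itself changed with age was tested in one fit of all 48 samples. For Cirbp, the 12-month difference exceeded that at E14.5 by 0.60 (SE 0.20, limma adjp = 0.26), that at 1 month by 0.63 (SE 0.20, limma adjp = 0.23) and that at 6 months by 0.66 (SE 0.20, limma adjp = 0.30). For Rbm3, it exceeded the younger differences by 0.57, 0.68 and 0.58 (SE 0.22 each, limma adjp = 0.31, 0.24 and 0.42). The 3 comparisons share the 12-month mice. None of the 6 values passed the threshold, which 0.0635%, 0.00578% and 0.0578% of the genes did in the comparisons with E14.5, 1 month and 6 months. Each value was recomputed with each mouse left out in turn. For Cirbp the limma adjp then reached up to 0.49, 0.46 and 0.60 against E14.5, 1 month and 6 months. For Rbm3 it reached up to 0.56, 0.47 and 0.75. WT replicates 3 and 4 at 12 months are the pair high in both genes, so leaving out either one raises the difference by construction. Without replicate 3 or replicate 4, Cirbp passed against every younger age, with differences of 0.74 to 0.82 (limma adjp = 0.039 to 0.063). Rbm3 passed against 1 month, with 0.83 and 0.79 (limma adjp = 0.051 and 0.077). Without WT replicate 6 at E14.5, Cirbp also passed against E14.5 (0.66, limma adjp = 0.083).

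Cirbp and Rbm3 varied together from mouse to mouse when the groups were pooled. Among the 42 mice other than the 12-month WT group, after removal of group means, Pearson's r was 0.63 and Spearman's rho 0.66 (permutation within groups, p = 3.0e-05 and 2.0e-05), and r was 0.62 without the 2 mice farthest from the median of Cirbp. These 42 mice were pooled after the values were seen. Over all 48 mice r was 0.78 and rho 0.75 (permutation p = 1e-05 for each, the smallest that 100000 permutations can give), and r was 0.69 without the 2 farthest mice. Because the 12-month WT mice fell into separate sets for both genes, no r is given within that group. Of the 7 other groups, tested as part of a family of 8, r ranged from 0.33 in WT mice at E14.5 to 0.95 in Chd8 V986*/+ mice at E14.5. The latter was the group that passed after Benjamini-Hochberg adjustment (exact permutation p = 0.0014, adjusted p = 0.011; rho = 1.0 with adjusted p = 0.022), and its r was 0.90 without the 2 farthest mice. In the other 6 groups the adjusted p of r was 0.11 to 0.49. Without the 2 farthest mice, r in the Chd8 V986*/+ groups was −0.28 at 1 month, 0.38 at 6 months and 0.10 at 12 months. In the WT groups it was then 0.93 at E14.5, 0.97 at 1 month and 0.42 at 6 months. Each of these values comes from few mice and a narrower range of Cirbp, so none can show what the relation in a single group rests on. With the means of replicates 1 to 3 and of replicates 4 to 6 removed within each group, r over 48 mice was 0.87.

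**Figure D3:**
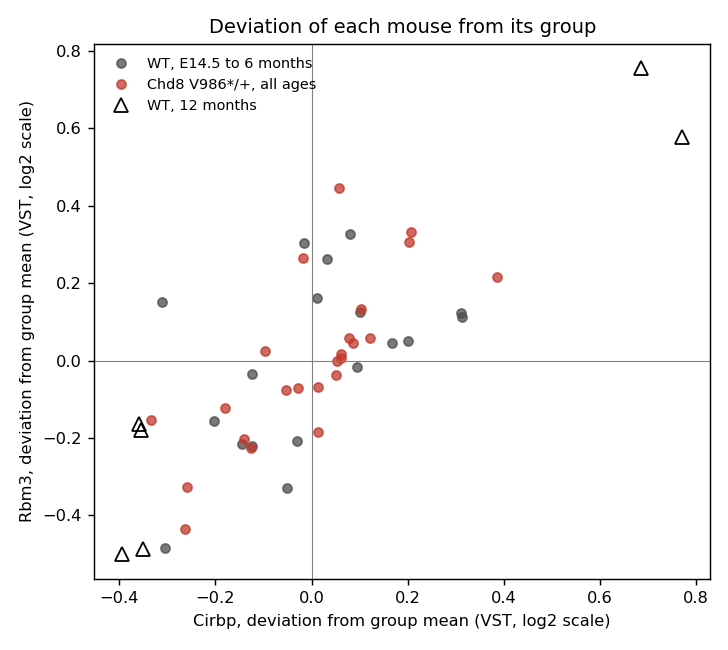
Deviation of each mouse from the mean of its genotype and age in Cirbp (horizontal) and Rbm3 (vertical), both in VST units on a log2 scale, with the 12-month WT mice as open triangles. The points rise together (r = 0.63 over the 42 mice drawn as circles), and the triangles lie in 2 corners, a pair far above and 4 mice below their group mean.

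Other genes followed the same mouse-to-mouse pattern. Likeness was measured as Pearson's r with Cirbp or Rbm3 over the 48 mice after removal of the 8 group means, across 17311 genes, and is given as a description without a test, since the libraries are shared by all genes. For Cirbp, the highest r belonged to Haghl (0.85), Eny2 (0.84), Hnrnpdl (0.79), Rbm3 (0.78) and Acox3 (0.78). Rbm3 was therefore the fourth most alike of all genes to Cirbp. For Rbm3, the highest r belonged to Acox3 (0.84), Eny2 (0.81), Cirbp (0.78), the host transcript Mir9-3hg (0.76) and Eml2 (0.74). Eny2, a subunit shared by a transcriptional coactivator and an mRNA export complex, and Acox3, a peroxisomal fatty acid oxidase, were on both lists, and Hnrnpdl encodes an RNA-binding protein related to AUF1. Without the 12-month WT mice, the r of these genes was between 0.57 and 0.82. In all, 20 genes had an r of at least 0.7 with Cirbp and 10 with Rbm3.

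The genes that ran opposite to Cirbp and Rbm3 included chaperones and proteins of the secretory pathway. The lowest r with Cirbp belonged to Mettl16 (−0.90), the RNA methyltransferase of the S-adenosylmethionine synthetase transcript, followed by Hsph1 (−0.87), a cytosolic chaperone of the HSP110 family, Lman2l (−0.86), Ubxn2b (−0.86) and Stip1 (−0.83), the co-chaperone that links HSP70 and HSP90. The lowest with Rbm3 belonged to Lman2l (−0.84), a lectin of the early secretory pathway, Rpn1 (−0.72), a subunit of the oligosaccharyltransferase, Calr (−0.72), the endoplasmic reticulum chaperone calreticulin, Mettl16 (−0.70) and Rngtt (−0.70), the mRNA capping enzyme. Mettl16 and Lman2l were on both lists. An r of −0.7 or lower with Cirbp was found for 47 genes and with Rbm3 for 4. Without the 12-month WT mice, the r of Mettl16 with Cirbp was −0.89 and that of Hsph1 was −0.80, so these relations were present in the other groups too, while the r of Calr and Rngtt with Rbm3 was −0.49 and −0.43.

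At 12 months the same WT mice stood apart in these genes. Hsph1 was 13.52, 13.79, 12.93, 12.86, 13.67 and 13.51 in WT replicates 1 to 6, against 12.84 to 13.01 in the Chd8 V986*/+ mice. Replicates 3 and 4, the pair high in Cirbp and Rbm3, thus had Hsph1 levels like those of Chd8 V986*/+ mice, and the other 4 had more. Stip1 was 12.68, 12.56, 12.02, 12.00, 12.70 and 12.88 in the WT mice in the same order, against 12.04 to 12.13 in Chd8 V986*/+ mice. Calr was 13.74, 13.60, 13.04, 13.07, 13.66 and 13.97, against 12.94 to 13.19. In the other direction, Hnrnpdl was 11.45, 11.38, 12.08, 11.94, 11.42 and 11.46 in the WT mice, against 11.83 to 11.97. Each of these genes divided the 12-month WT mice into the same pair and the same 4. They were chosen for their r over mice that include these 6, so the shared division is partly built in by the choice. None was called between genotypes at 12 months, where the log2 fold-change was −0.47 for Hsph1, −0.39 for Stip1, −0.45 for Calr and 0.29 for Hnrnpdl (limma adjp = 0.23 to 0.33).

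**Figure D4:**
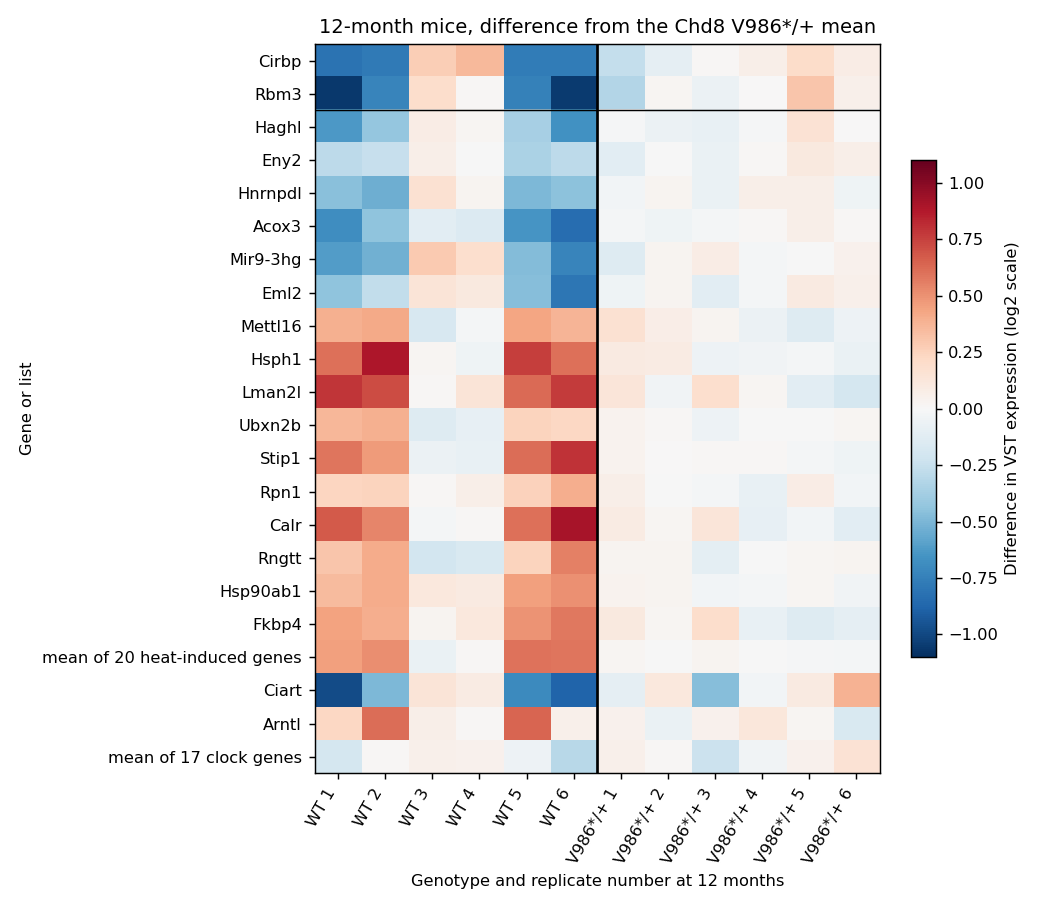
Difference of each 12-month mouse (columns, 6 WT and then 6 Chd8 V986*/+ mice) from the Chd8 V986*/+ mean, in VST units on a log2 scale (blue, lower; red, higher), for Cirbp, Rbm3, the genes most and least like them, and genes and means of the heat-induced and clock lists. WT replicates 1, 2, 5 and 6 are low in Cirbp, Rbm3 and the genes like them and high in Hsph1, Stip1 and Calr, while WT replicates 3 and 4 resemble the Chd8 V986*/+ mice.

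Across the 8 group means, where the shift between embryonic and postnatal cortex sets most of the pattern, other genes were the most alike. For Cirbp these were Pcif1 (r = 0.993), Hdx (0.992), Mrnip (0.991), Zfp687 (0.990) and Gli1 (0.989), and for Rbm3 they were Ly6g5b (0.996), D3Ertd254e (0.996), Zxdc (0.994), Prr12 (0.991) and Polr1a (0.990). Pcif1 encodes a methyltransferase that acts at the mRNA cap, Gli1 a transcription factor of Hedgehog signaling and Polr1a the largest subunit of RNA polymerase I. Their r with Cirbp or Rbm3 within the groups, over the 42 mice without the 12-month WT group, was between −0.38 and 0.47. None of these genes was among those named above as most like Cirbp or Rbm3 between mice. Each list named only 5 of 17311 genes, so the lack of a shared gene cannot show whether likeness over ages and between mice differ.

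Among regulators of CIRBP and RBM3 or of their response to cold, no gene was called between genotypes. The list held 13 genes, among them the cold-linked receptor kinase Ntrk2 with Plcg1 and Creb1, the temperature-sensitive kinases Clk1 and Clk4, Hnrnph1, the splicing factors Srsf2 and Srsf5, and Sp1. The count with an unadjusted p below 0.05 was 3 at 6 months and 0 at the other ages. Among all genes tested, from the youngest age to the oldest, this count was 769 of 16877, 1515 of 17221, 1310 of 17256 and 2000 of 17288. The median difference at 12 months was 0.013, beside 0.0046 for all genes tested. The lowest p at 12 months belonged to Prmt1, the arginine methyltransferase that modifies CIRBP (−0.10, limma adjp = 0.50), and to Creb1 (−0.11, limma adjp = 0.52). From E14.5 to 1 month in WT mice, 9 of the 13 were called lower and 3 higher, with a median of −1.14 beside 0.035 for all genes. Of all genes tested 85.5% were called over this interval (7607 higher and 7224 lower), so 12 of 13 called is near the background. In Chd8 V986*/+ mice over the same interval 9 were called lower and 2 higher.

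Of 7 transcripts known to be bound or regulated by CIRBP or RBM3, 0 were called between genotypes at any age, with 1 unadjusted p below 0.05 (Atr at 12 months). The median difference at 12 months was 0.012. The lowest p there belonged to Atr, a kinase of the DNA damage response (0.20, limma adjp = 0.36), and Rpa2, a subunit of the single-stranded DNA-binding complex (0.15, limma adjp = 0.53). From E14.5 to 1 month in WT mice 5 of the 7 fell and 2 rose, with a median of −0.66, where 85.5% of all genes were called. The 8 genes with a cold shock domain, a nucleic acid-binding fold, had 0 calls between genotypes, with 2 unadjusted p below 0.05 at E14.5 and 0 later, and a median of −0.037 at 12 months over the 7 tested. Ybx1, which packages messenger RNA, had −0.12 (limma adjp = 0.45) and Ybx2, its germ cell relative, 0.18 (limma adjp = 0.70), and from E14.5 to 1 month in WT mice 7 of the 8 fell and 1 rose, against the same background.

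The 11 relatives of Cirbp and Rbm3 with an RNA recognition motif, of which 10 were tested, had 0 calls between genotypes, with 2 unadjusted p below 0.05 at 6 months and 1 at 12 months, and a median of 0.039 at 12 months. All 10 fell from E14.5 to 1 month in each genotype, with medians of −1.60, as Cirbp and Rbm3 did, in comparisons where 85.5% of genes were called in WT and 86.5% in Chd8 V986*/+ mice. Rbmx, an X-linked splicing regulator, differed by 0.13 at 12 months (limma adjp = 0.43) and by −0.14 at 6 months (limma adjp = 0.53), and had an r of 0.73 with Rbm3 between mice. Rbm8a, a core component of the exon junction complex, differed by −0.085 at 12 months (limma adjp = 0.48) and had an r of −0.25 with Rbm3.

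The heat-induced list held Hsf1 itself and targets of HSF1, most of them known to respond to temperature in the opposite direction from Cirbp and Rbm3. It was the list with the largest median difference at 12 months. All 20 were lower in mean in Chd8 V986*/+ than in WT mice, with a median of −0.36 beside 0.0046 for all genes. Of these, 15 had an unadjusted p below 0.05 (2000 of all 17288 genes did), but none was called here. The study, which tested with DESeq2 in place of limma, reported genes of HSF1 signaling and chaperone function as lower at this age. Hsph1 and Stip1 are members of the heat-induced list. Hsp90ab1, the constitutive cytosolic HSP90, had the lowest p (−0.32, SE 0.078, limma adjp = 0.21), followed by Fkbp4, an HSP90 co-chaperone of steroid receptors (−0.34, SE 0.090, limma adjp = 0.22). The mean of the 20 genes was 11.21, 11.27, 10.68, 10.77, 11.36 and 11.34 in WT replicates 1 to 6 and 10.73 to 10.79 in the Chd8 V986*/+ mice. The high WT mice were again replicates 1, 2, 5 and 6. At the other ages the list divided into 12 to 14 genes higher and 6 to 8 lower, with medians of 0.019 to 0.024, 0 calls and 0 unadjusted p below 0.05. From 6 to 12 months in Chd8 V986*/+ mice, all 20 were lower in mean and 8 of them were called (median −0.15). In WT mice over this step, 19 were higher and 1 was lower in mean. Of these, 0 were called and 5 had an unadjusted p below 0.05 (median 0.15). Of all genes 1.88% were called over this step in Chd8 V986*/+ mice (106 higher and 219 lower) and 0.0115% in WT mice.

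Clock genes are the other group to which CIRBP is tied, since it is known to sustain the amplitude of the clock. None of the 17 was called between genotypes at any age, the count with an unadjusted p below 0.05 was at most 3, and their median at 12 months was 0.10 beside 0.0046 for all genes. The lowest p belonged to Ciart, a repressor driven by the clock (0.47, SE 0.19, limma adjp = 0.35), and Arntl, the activator BMAL1 (−0.27, SE 0.11, limma adjp = 0.35). Ciart was 7.50, 7.98, 8.62, 8.57, 7.78 and 7.60 in WT replicates 1 to 6, with the highest levels in replicates 3 and 4, and 8.01 to 8.86 in the Chd8 V986*/+ mice. Arntl was 9.92, 10.31, 9.76, 9.71, 10.33 and 9.75, which parted the WT mice differently, since replicate 6 had as little Arntl as replicate 3. Between mice over all groups, Ciart had an r of 0.62 with Rbm3 and Arntl one of −0.52 with Cirbp. The hour at which each mouse was killed was not analysed here.

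**Figure D5:**
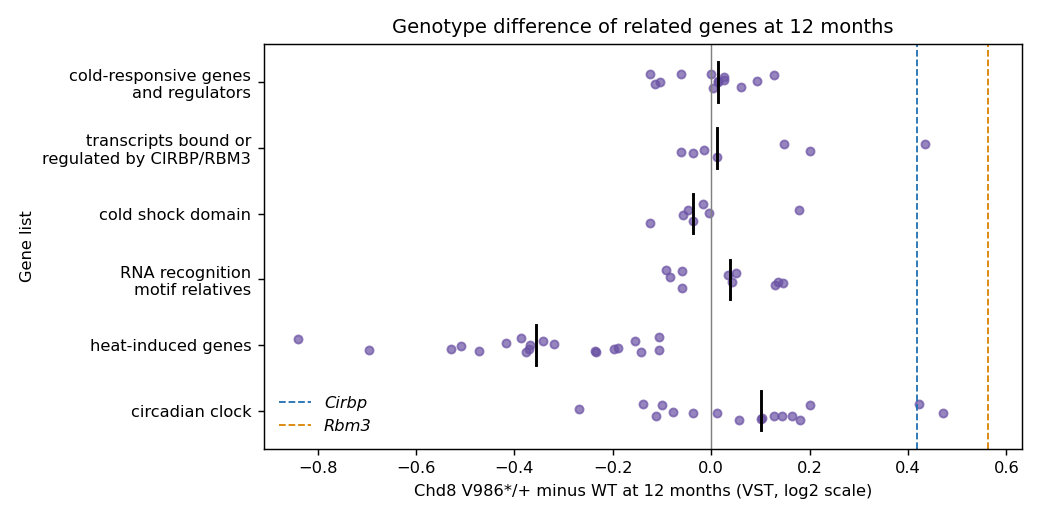
Difference of Chd8 V986*/+ from WT mice at 12 months (VST, log2 scale) for the members of 6 gene lists, one point per gene, with the list median as a black bar and the differences of Cirbp and Rbm3 as dashed lines. The 20 genes of the heat-induced list all lie below 0 (median −0.36), while the other lists spread around 0.

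The genes beside Cirbp and Rbm3 on their chromosomes were examined for the same 12-month difference. Next to Cirbp lie Midn, which differed by −0.073 at 12 months (limma adjp = 0.82), and 1600002K03Rik, with 0.14 (limma adjp = 0.78). Next to Rbm3 lies Wdr13, with 0.055 (limma adjp = 0.75). None of these was called between genotypes at any age. On the other side, the antisense transcript Rbm3os (2900002K06Rik in the annotation) overlaps the start of Rbm3 by 452 bases. Its VST values reached at most 4.81 in any mouse and differed by −0.10 at 12 months (limma adjp = 0.84). The study's methods name a stranded library kit and the sample labels one that does not keep the strand, and whether the counting used the strand is not given in the sources used here. Without strand, reads of Rbm3os and of Rbm3 in their overlap could not be told apart.

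The cellular makeup of the 12-month samples was compared through markers of other tissues and cell types. The mean of 7 choroid plexus markers was 6.19 to 7.33 in WT and 5.61 to 7.87 in Chd8 V986*/+ mice. The means of 6 microglial (10.13 to 10.46 in WT mice), 5 astrocyte (12.21 to 12.70) and 5 oligodendrocyte markers (13.10 to 13.32) overlapped between the genotypes, as did those of 8 red blood cell markers (6.74 to 7.57). The 4 endothelial markers had a mean of 9.97, 9.91, 9.64, 9.71, 9.99 and 9.91 in WT replicates 1 to 6 and 9.41 to 9.86 in Chd8 V986*/+ mice. The 6 striatal markers had a mean of 10.98, 10.74, 10.54, 10.51, 10.56 and 10.96 in the WT mice in the same order and 9.87 to 10.77 in Chd8 V986*/+ mice. Replicates 1, 2, 5 and 6, the mice low in Cirbp and Rbm3, were the higher WT mice for both means, though replicate 5 was close to replicate 3 in the striatal mean, and the part of these markers in the 12-month values of Cirbp and Rbm3 was not tested. For the 26 midbrain, hindbrain and spinal cord markers, 9 were near the floor in all 12-month WT mice and the mean was at most 2.90 in them.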

How the data were processed

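RNA-seq libraries of polyA RNA from 48 cortices were used. The authors filtered and trimmed reads, aligned them to mm9 with STAR 2.5.2b, quantified transcripts with Salmon 0.11.3 and deposited VST values on a log2 scale from DESeq2 (the processing notes list DESeq 1.22.2), in a model that corrected for batch. Here, samples were grouped by the genotype and age in their labels. Genes whose mean exceeded the floor of 2.1433 by 0.5 were tested with limma 3.58.1 in R 4.3.3 with an intensity trend, adjusted by the Benjamini-Hochberg method over all genes tested and called at adjp below 0.1, the study's threshold. Genotypes were compared at each age (6 against 6), ages within a genotype in one fit of 24 mice, and changes of the genotype effect in one fit of 48. The fitting was tested on simulated data. Cirbp, Rbm3 and the gene lists were chosen with earlier results of these data known. Beside both genes, Chd8 and their neighbours, the text names the 2 genes of each list with the lowest p at 12 months and the 5 genes most or least like Cirbp or Rbm3. Replicates are separate mice. Sequences of promoters came from RefSeq. Exact and permutation tests used scipy 1.17.1 in Python 3.11.15. Alternatives were other filters, variance priors, normalizations, covariates, thresholds, samples in the fit, a replicate block, sets of replicates and leaving out each sample.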

Additional observations from a re-analysis of the deposited data

How the results depend on the processing

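Over 27 results for Cirbp, Rbm3 and their correlation, 1042 alternative values were computed, of which 987 kept their direction and their side of the threshold, 19 lost a call, 18 gained one and 18 changed sign. The sign changes all belonged to Rbm3 differences between genotypes that lay near 0. At E14.5 the Rbm3 difference was 0.042 with samples centred on the median gene, 0.11 in replicates 1 to 3 and −0.047 to 0.028 with single mice left out, at 1 month it was 0.047 in replicates 1 to 3, and at 6 months it was 0.00090 with centring, 0.0053 in replicates 1 to 3 and −0.11 to 0.046 with single mice left out. In one fit of all 48 samples, Rbm3 at 12 months was called (0.56, limma adjp = 0.059), as was Cirbp from 1 to 6 months in WT mice (0.38, limma adjp = 0.075), while Cirbp lost its call from 1 to 6 months (0.34, limma adjp = 0.11) and from 6 to 12 months (0.33, limma adjp = 0.35) in Chd8 V986*/+ mice. With the 1- and 6-month mice alone, Cirbp (0.38, limma adjp = 0.0053) and Rbm3 (0.36, limma adjp = 0.052) were called in WT mice. The Cirbp change from 6 to 12 months in Chd8 V986*/+ mice also lost its call without a filter (0.33), without a trend (0.33), after quantile normalization (0.36), with centring (0.27), with the set of replicates as a covariate (0.33), at a threshold of 0.05 (0.33) and with a replicate block (0.33), and ranged from 0.29 to 0.38 with single mice left out. Leaving out single mice gave 0.46 to 0.71 for Rbm3 at 12 months, and for the excess of the 12-month difference 0.52 to 0.75 (against E14.5), 0.55 to 0.78 (1 month) and 0.59 to 0.82 (6 months) for Cirbp and 0.58 to 0.83 (1 month) for Rbm3, with the mice that decide these calls named beside the results. The cause of these changes was not tested.

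The labels do not tie replicate numbers to litters or batches, and the criterion for pairing, that every same-numbered pair correlates above 0.1, was met at no age, although 4 of 6 pairs exceeded it at E14.5. The deviations of same-numbered WT and Chd8 V986*/+ mice had mean correlations, from the youngest age to the oldest, of 0.23, 0.019, 0.046 and −0.034, and 7, 2, 2 and 1 of 12 samples correlated best with their own number. With the replicate number as a block, genes called between genotypes numbered 2, 13, 30 and 2 at these ages, in place of 1, 24, 16 and 8. With the block, Cirbp at E14.5 had −0.18 with an SE of 0.052 in place of 0.12 (unadjusted p = 0.0063, limma adjp = 0.35) and was not called. Under the block Cirbp at 12 months had 0.42 with a limma adjp of 0.40, and in the fit of 48 samples with the block it had 0.42 and was called (limma adjp = 0.046), as was Rbm3 (0.56, limma adjp = 0.026), in a fit with 1006 genes called at 12 months. The excess of the Cirbp difference at 12 months was called with the block against E14.5 (0.60, limma adjp = 0.091) and 1 month (0.63, limma adjp = 0.092).

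In the fit of 48 samples, genes called at E14.5, 1, 6 and 12 months numbered 93, 37, 16 and 520. The number of genes called with single mice left out ranged over 0 to 2, 3 to 32, 5 to 21 and 2 to 251 at these ages, over 97 to 723 from 6 to 12 months in Chd8 V986*/+ mice, and over 0 to 695, 1 to 256 and 3 to 139 for the excess at 12 months against E14.5, 1 month and 6 months. Replicates 4 to 6 alone gave 250 at 1 month. Read counts per gene were not used here, so no limit from counting was set. Read depth per library, taken from the study's supplementary list, entered as a covariate and changed no call of Cirbp or Rbm3.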
